A study of Mus musculus with 10 samples.

Results

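The 10 genes described here encode proteins of the vascular basement membrane and were selected by name. They are the type IV collagen chains *Col4a1* and *Col4a2*, the laminin chains *Lama4*, *Lama5*, *Lamb1*, *Lamb2* and *Lamc1*, the nidogens *Nid1* and *Nid2*, and *Sparc*, whose product binds collagen. All 10 were found among the 27024 named rows of the expression table. Basement membranes are thin sheets of matrix on which endothelial cells rest. Laminins, each made of an α, a β and a γ chain, form a polymer at the cell surface, type IV collagen forms a second, covalently linked network, and nidogens connect the networks. In brain capillaries this sheet is shared with pericytes and astrocyte endfeet and contributes to the strength of the vessel wall.

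The cells were bEnd.3, an immortalised mouse brain endothelial line with the genotype given as wild type (WT). They received 5 nM StcE, a mucinase of bacterial origin whose substrates are glycoproteins dense in O-linked mucin-type sugars, or an equal volume of saline, and were collected after 16 h. There were 5 saline samples (replicates 1, 2, 3, 4 and 5) and 5 StcE samples (replicates 1, 2, 3, 5 and 6). The comparison asks how the transcriptome of brain endothelial cells differs after degradation of mucins. The sources do not say whether the samples of a group were separate cultures, so p-values measure the spread between these samples, which may be technical. Values are FPKM, fragments relative to gene length and to how deeply each sample was sequenced. Between 21864604 and 33147402 fragments per sample were recovered from them. The members were covered by at least 592 fragments per sample (*Nid2*) and at most 129725 (*Col4a1*). Counting error alone was 3.23% to 4.11% for *Nid2*, against a spread of 7.16% among saline and 6.60% among StcE samples, and at most 2.65% for each of the other 9 members.

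With saline, *Sparc* had the highest level per length, at 784.4 ± 26.8 FPKM (SD, n = 5). It was followed by *Col4a1* (537.6 ± 27.7 FPKM), *Col4a2* (422.5 ± 27.3 FPKM) and *Nid1* (160.4 ± 8.44 FPKM). The laminin chains came next, with *Lamc1* at 83.3 ± 5.40 FPKM, *Lama5* at 58.8 ± 5.42, *Lamb2* at 50.4 ± 2.06 and *Lamb1* at 15.7 ± 0.902. *Nid2* (5.47 ± 0.391 FPKM) and *Lama4* (5.32 ± 0.346 FPKM) were lowest, with ranges that overlapped in both groups. *Nid2* was the higher of them in 4 of 5 saline samples and 0 of 5 StcE samples, a turn of order between groups that was not tested. Every other neighbour in this order was separated in all 10 samples, although the StcE ranges of *Lamc1* and *Lama5* overlapped. Ordered by the average of both group means among the 11062 genes with a mean of at least 1 FPKM, *Sparc* ranked 27, *Col4a1* 58 and *Col4a2* 82, while *Lama4* ranked 6894 and *Nid2* 7041. These levels divide by the union of all annotated exons, which for *Lama4* is 12068 bases against 6046 for its longest coding transcript. Per length of that transcript, *Lama4* stood at 10.6 ± 0.692 with saline and *Nid2* at 5.80 ± 0.415, and the order of the other 8 genes was the same.

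After StcE, 4 of the 10 members fell past the threshold and 0 rose. The genes that fell were *Col4a1*, *Col4a2*, *Lamb2* and *Sparc*, with mean FPKM between 9.06% and 14.0% lower. The threshold was a limma adjusted p under 0.05 (Benjamini-Hochberg) over the 11062 genes tested, all 10 members among them. Across all genes tested 11.9% were past it, 6.41% lower and 5.52% higher after StcE. The median log2 fold change was -0.14 over the members and -6.6e-04 over all genes tested. Of the 10, 8 had a lower mean after StcE and 2, *Lama4* and *Nid1*, a higher mean. The groups did not overlap for 1 member, *Sparc*, and 5.80% of all genes tested lay wholly lower in the same way. FPKM is relative to the fragments of a sample. In bulk samples of a single line, a lower level in every cell and in only some cells cannot be told apart. At an unadjusted limma p under 0.05 there were 6 members, all lower, where 14.9% of all genes tested were lower by that rule. With voom on the recovered fragments 5 were lower past the threshold, *Lamb1* being the addition, where 7.20% of the 10445 genes it tested were. The calls sat close to the threshold. Without saline replicate 1, 0 members were past it, and 0 were past it without a filter on low FPKM. The count was 1 without saline replicate 3, without saline replicate 4, without StcE replicate 1 and without StcE replicate 3, while all 4 genes stayed below 0 in each of these fits.

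**Figure D1:**
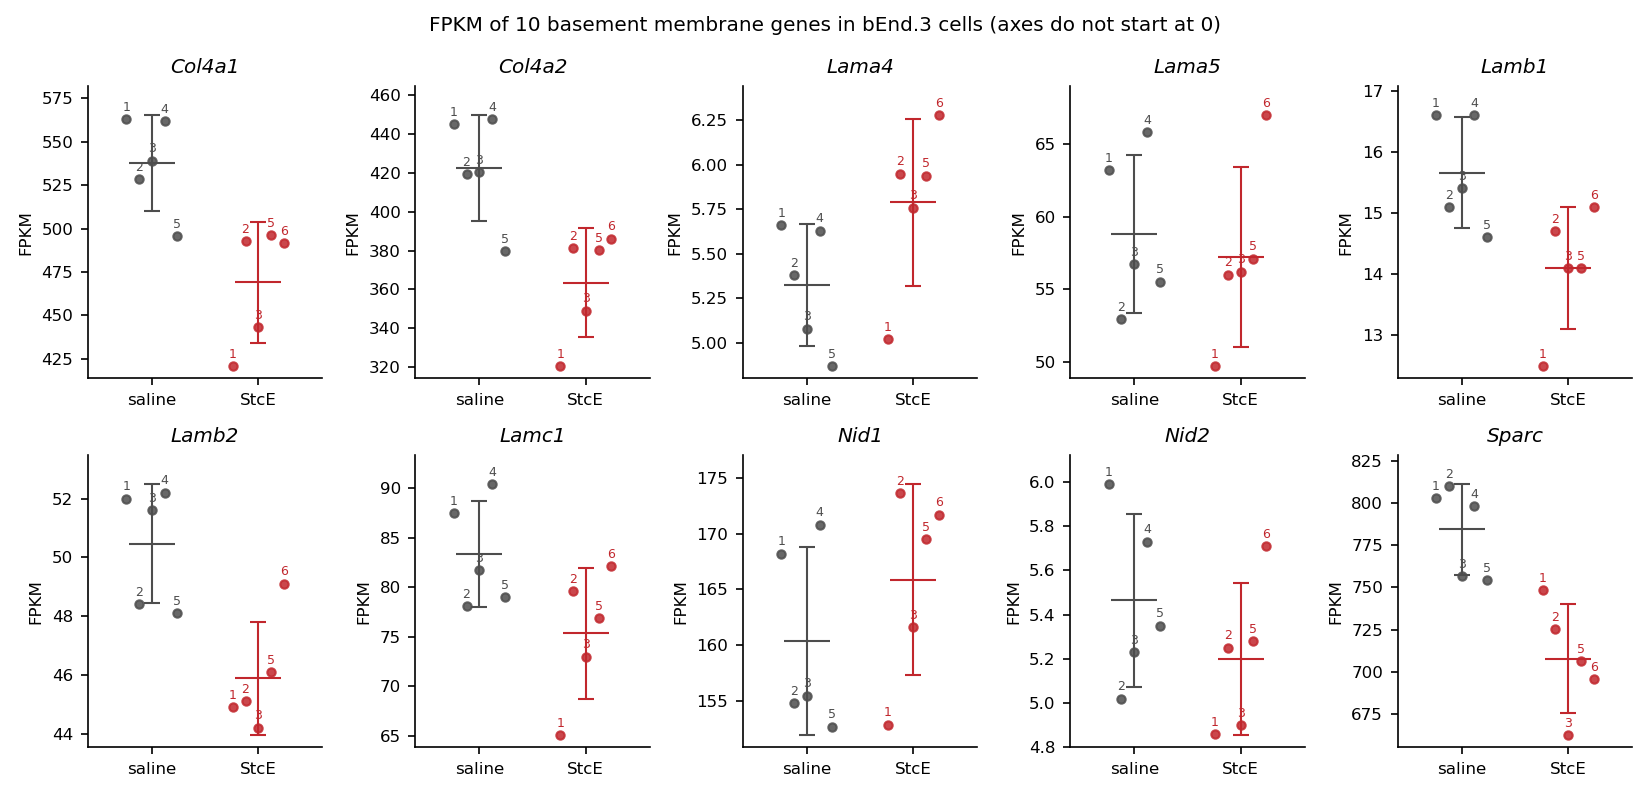
FPKM of each of the 10 genes (vertical axes, not starting at 0) in the 5 saline (grey) and 5 StcE samples (red) of bEnd.3 cells. Points are samples labelled with their replicate number, and bars are the mean and SD. The groups are apart for *Sparc*, with a StcE maximum of 748.6 and a saline minimum of 754.4 FPKM, and overlap for the other 9 genes.

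*Col4a1* encodes the α1 chain of type IV collagen, the main collagen of most basement membranes. Its FPKM was 563.1, 528.5, 539.0, 561.7 and 495.6 in saline replicates 1 to 5 and 420.9, 492.9, 443.3, 496.2 and 491.4 in StcE replicates 1, 2, 3, 5 and 6. Saline replicate 5 was the low sample of its group, and 4 of 5 StcE samples lay below it, with StcE replicate 5 just above. The mean was 12.8% lower, from 537.6 ± 27.7 to 468.9 ± 34.6 FPKM, and its log2 fold change, on the log2(FPKM + 1) scale that understates changes of low genes, was -0.20 (standard error 0.0520, limma adjusted p = 0.0307). An exact two-sided permutation test of the mean gave p = 0.0159. The adjusted p rose above the threshold when single samples were left out, to 0.0748, 0.0609 and 0.0683 without saline replicates 1, 3 and 4 and to 0.0564 and 0.0790 without StcE replicates 1 and 3.

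*Col4a2* encodes the α2 chain, which joins α1 chains in the common collagen IV protomer. Its FPKM was 445.0, 419.5, 420.6, 447.8 and 379.8 in saline replicates 1 to 5 and 320.6, 381.4, 349.0, 380.3 and 386.2 in StcE replicates 1, 2, 3, 5 and 6. Saline replicate 5 lay among the StcE samples, and the other 4 saline samples lay above every StcE sample. The mean went from 422.5 ± 27.3 to 363.5 ± 28.2 FPKM, or -0.22 in log2 fold change (standard error 0.0580, limma adjusted p = 0.0326, exact permutation p = 0.0317). Leaving out a sample gave an adjusted p of 0.0778, 0.0564, 0.0615 and 0.0731 without saline replicates 1, 2, 3 and 4 and 0.0569 and 0.0808 without StcE replicates 1 and 3. Without a filter on low FPKM it was 0.112 for *Col4a1* and 0.114 for *Col4a2*, and with a filter at a mean of 0.1 FPKM 0.0502 and 0.0530.

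Within a sample the 2 collagen genes kept a nearly constant proportion. The ratio of *Col4a1* to *Col4a2* FPKM ranged from 1.25 to 1.30 with saline and from 1.27 to 1.31 with StcE, with a coefficient of variation of 1.62% over the 10 samples. The single genes varied by 5.16% (*Col4a1*) and 6.46% (*Col4a2*) among saline samples alone. The mean log2 ratio differed by 0.020 between groups, which was within the spread (exact two-sided permutation p = 0.198, adjusted p = 0.265 over the 4 ratios tested). The genes lie head to head on chromosome 8 of GRCm38, *Col4a1* on the minus strand from 11198423 to 11312826 and *Col4a2* on the plus strand from 11312805 to 11449287. Their first exons share 22 bases on opposite strands, 0.295% of the exon length of *Col4a1*, and 0.982% of the exon length of *Col4a2* overlaps genes on the other strand. The libraries were strand-specific, but whether the counting used strand is not given in the sources used here.

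*Sparc* (chromosome 11, 55394500 to 55423183) encodes a secreted glycoprotein that binds collagens, type IV among them, and is abundant in cultured endothelium. Its FPKM was 802.8, 810.1, 756.6, 798.2 and 754.4 in saline replicates 1 to 5 and 748.6, 725.4, 662.8, 706.3 and 695.9 in StcE replicates 1, 2, 3, 5 and 6. All 5 StcE samples lay below all 5 saline samples, by a margin of a few FPKM between saline replicate 5 and StcE replicate 1. The mean went from 784.4 ± 26.8 to 707.8 ± 32.2 FPKM, or -0.15 in log2 fold change (standard error 0.0352, limma adjusted p = 0.0201). The exact permutation p was 0.00794, the smallest that 5 samples against 5 allow. The adjusted p was 0.104 with all genes kept whatever their FPKM. It was 0.0524 without saline replicate 1 and between 0.0127 and 0.0471 without each of the other 9 samples. StcE replicate 1, the lowest StcE sample for most members, was the highest of its group for *Sparc*.

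The β and γ laminin chains all had lower means after StcE. *Lamb2* (chromosome 9, 108479736 to 108490530), the β2 chain, had FPKM of 52.0, 48.4, 51.6, 52.2 and 48.1 in saline replicates 1 to 5 and of 44.9, 45.1, 44.2, 46.1 and 49.1 in StcE replicates 1, 2, 3, 5 and 6. StcE replicate 6 lay among the saline samples, and the other 4 StcE samples lay below all of them. Its mean of 50.4 ± 2.06 FPKM fell to 45.9 ± 1.91, or -0.13 in log2 fold change (standard error 0.0347, limma adjusted p = 0.0293, exact permutation p = 0.0238). Its adjusted p was 0.0774 without a filter on low FPKM. It was 0.0730, 0.0659 and 0.0644 without saline replicates 1, 3 and 4 and 0.0647, 0.0547, 0.0755 and 0.0554 without StcE replicates 1, 2, 3 and 5. *Lamb1* (chromosome 12, 31265234 to 31329644), the β1 chain, averaged 15.7 ± 0.902 FPKM with saline and 14.1 ± 1.01 with StcE, and its log2 fold change of -0.14 did not pass (limma adjusted p = 0.0902, 0.0348 with voom on the recovered fragments, exact permutation p = 0.0397). *Lamc1* (chromosome 1, 153218922 to 153332786), the γ1 chain found in most laminins, had 83.3 ± 5.40 and 75.3 ± 6.65 FPKM, a log2 fold change of -0.15 (95% interval -0.28 to -0.01, limma adjusted p = 0.147). Of its StcE samples 3 lay below every saline sample, with StcE replicate 1 lowest at 65.1 FPKM.

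The ratio of *Lamb1* to *Lamb2* ranged from 0.299 to 0.319 with saline and from 0.277 to 0.325 with StcE, and its mean log2 value differed by -0.016 (exact permutation p = 0.786, adjusted p = 0.786). StcE replicate 1 had the lowest ratio, and without it the difference was 0.02 in the opposite direction. *Lamb2* made up 76.3% ± 0.510 (SD, n = 5) of the summed *Lamb1* and *Lamb2* FPKM with saline and 76.5% ± 1.10 with StcE, or 67.0% ± 0.624 and 67.2% ± 1.35 per length of the longest coding transcript.

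No difference in the mean ratio of *Lamb1* to *Lamb2* was detected, although its StcE range was wider than its saline range at both ends. The promoter stretches of these paired chains are shown, with that of *Nid1*, a member whose higher mean did not pass the threshold. A link between sequence and these values was not tested. The stretches are RefSeq sequences of GRCm38.p6, on the plus strand, and end before the first base of any annotated transcript. Of the 10 members, 7 matched a promoter entry, *Lama4*, *Lamc1* and *Nid2* being the others. Capitals mark the GC box core GGGCGG and the CCAAT box on either strand, and no 2 of the marked motifs overlap. The stretches lie at chr12:31265043-31265233 (*Lamb1*, 191 bases), chr9:108479612-108479735 (*Lamb2*, 124 bases) and chr13:13437352-13437550 (*Nid1*, 199 bases).
Lamb1: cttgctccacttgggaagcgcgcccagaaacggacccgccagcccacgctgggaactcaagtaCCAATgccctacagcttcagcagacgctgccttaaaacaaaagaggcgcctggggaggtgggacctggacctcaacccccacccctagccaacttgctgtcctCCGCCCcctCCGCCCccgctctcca
Lamb2: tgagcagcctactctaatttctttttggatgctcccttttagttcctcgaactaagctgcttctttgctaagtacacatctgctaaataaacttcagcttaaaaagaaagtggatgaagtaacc
Nid1: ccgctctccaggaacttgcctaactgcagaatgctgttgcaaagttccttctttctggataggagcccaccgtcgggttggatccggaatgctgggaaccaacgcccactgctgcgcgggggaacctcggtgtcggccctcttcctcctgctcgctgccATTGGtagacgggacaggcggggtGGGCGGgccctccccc

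In windows of 300 bases around the RefSeq start, GGGCGG was present in 5 of the 7 members and CCAAT in 4 of 7, against 35.7% and 37.4% of all 32851 promoters in the table. TATAAA was in 0 of the 7 and in 13.6% of all promoters. *Lama5* had 4 matches to GGGCGG and *Lamb1* 2, while the windows of *Lamb2* and *Sparc* held none of the 3 motifs. For *Col4a1*, *Col4a2* and *Sparc* an annotated exon was reached after at most 5 bases of the window. The share of the window in exons was not computed. The *Sparc* window lay inside the annotated gene, and those of *Col4a1* and *Col4a2* overlapped each other, so the counts over 7 members do not describe 7 separate upstream stretches. The *Lamb2* window was the lowest in G and C, at 44.0%, against 63.7% for *Lamb1*, 74.0% for *Col4a1* and a median of 52.7% over all promoters. A match describes the sequence and is not evidence of a bound factor.

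The α chains set laminin isoforms apart, laminin α4 being typical of endothelial basement membranes in general and laminin α5 joining it in mature vessels. *Lama5* (chromosome 2, 180176373 to 180225859) was far above *Lama4* (chromosome 10, 38965515 to 39110188) in every sample. It made up 91.7% ± 0.520 (SD, n = 5) of their summed FPKM with saline and 90.8% ± 0.397 with StcE, or 84.7% ± 0.881 and 83.2% ± 0.667 per length of the longest coding transcript. Neither gene passed the threshold by itself. *Lama4* had FPKM of 5.66, 5.38, 5.08, 5.63 and 4.87 in saline replicates 1 to 5 and of 5.02, 5.95, 5.76, 5.94 and 6.28 in StcE replicates 1, 2, 3, 5 and 6. Of the StcE samples 4 lay above every saline sample, and StcE replicate 1 lay near the bottom of the saline range. The log2 fold change was 0.10 (standard error 0.0536, 95% interval -0.02 to 0.22, limma adjusted p = 0.248). *Lama5* ranged from 52.9 to 65.8 FPKM with saline and from 49.7 to 67.0 with StcE, the widest relative spread of the members, and its log2 fold change of -0.04 (95% interval -0.21 to 0.13, limma adjusted p = 0.768) became 0.01 without StcE replicate 1.

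The within-sample ratio of *Lama4* to *Lama5*, which does not depend on how a sample is scaled, was higher after StcE. It was 0.0896, 0.102, 0.0896, 0.0856 and 0.0877 in saline replicates 1 to 5 and 0.101, 0.106, 0.102, 0.104 and 0.0936 in StcE replicates 1, 2, 3, 5 and 6. Saline replicate 2 lay among the StcE samples, and the other 4 saline samples lay below every StcE sample. The mean log2 ratio differed by 0.16 (exact two-sided permutation p = 0.0238, adjusted p = 0.0476 over the 4 ratios). Leaving out a sample moved the adjusted p between 0.0317 and 0.111. It was under 0.05 without saline replicate 2 (0.0317) or StcE replicate 6 (0.0476) only. It was 0.0847 without saline replicate 5, 0.0794 without StcE replicate 1, 0.0952 without StcE replicate 3 and 0.111 without each of saline replicates 1, 3 and 4 and StcE replicates 2 and 5. Fewer samples also allow fewer arrangements in these tests, 126 with 9 samples.

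Nidogens bind the laminin γ1 chain and type IV collagen. *Nid1* (chromosome 13, 13437551 to 13512269) averaged 160.4 ± 8.44 FPKM in saline and 165.9 ± 8.56 in StcE samples, or 0.05 in log2 fold change (95% interval -0.05 to 0.14, limma adjusted p = 0.507). *Nid2* (chromosome 14, 19751265 to 19811787) had 5.47 ± 0.391 and 5.20 ± 0.343 FPKM, a log2 fold change of -0.06 (95% interval -0.17 to 0.05, limma adjusted p = 0.470). The ratio of *Nid1* to *Nid2* was 28.1, 30.8, 29.7, 29.8 and 28.5 in saline replicates 1 to 5 and 31.4, 33.1, 33.0, 32.1 and 30.1 in StcE replicates 1, 2, 3, 5 and 6. It was higher after StcE, and the groups overlapped through saline replicate 2 and StcE replicate 6. The mean log2 ratio differed by 0.12 (exact two-sided permutation p = 0.0159, adjusted p = 0.0476 over the 4 ratios).

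The call on this nidogen ratio also depended on single samples. Its adjusted p was 0.0317 without saline replicate 2 and 0.0476 without StcE replicate 6. It was 0.0847 without saline replicate 5, 0.0794 without StcE replicate 1, 0.0952 without StcE replicate 3 and 0.111 without each of saline replicates 1, 3 and 4 and StcE replicates 2 and 5. Counting error of *Nid2* (3.23% to 4.11%) was about as large as the spread of this ratio, 3.74% among saline and 3.85% among StcE samples. *Nid2* values carry a further uncertainty, since 8.45% of its exon length overlaps *Rtraf* on the opposite strand. For *Nid1*, 2.06% of the exon length overlaps an antisense gene and 3.69% of the transcript has a near-identical copy in *Gm2399*. The other 8 members had no near-identical copy in another gene.

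**Figure D2:**
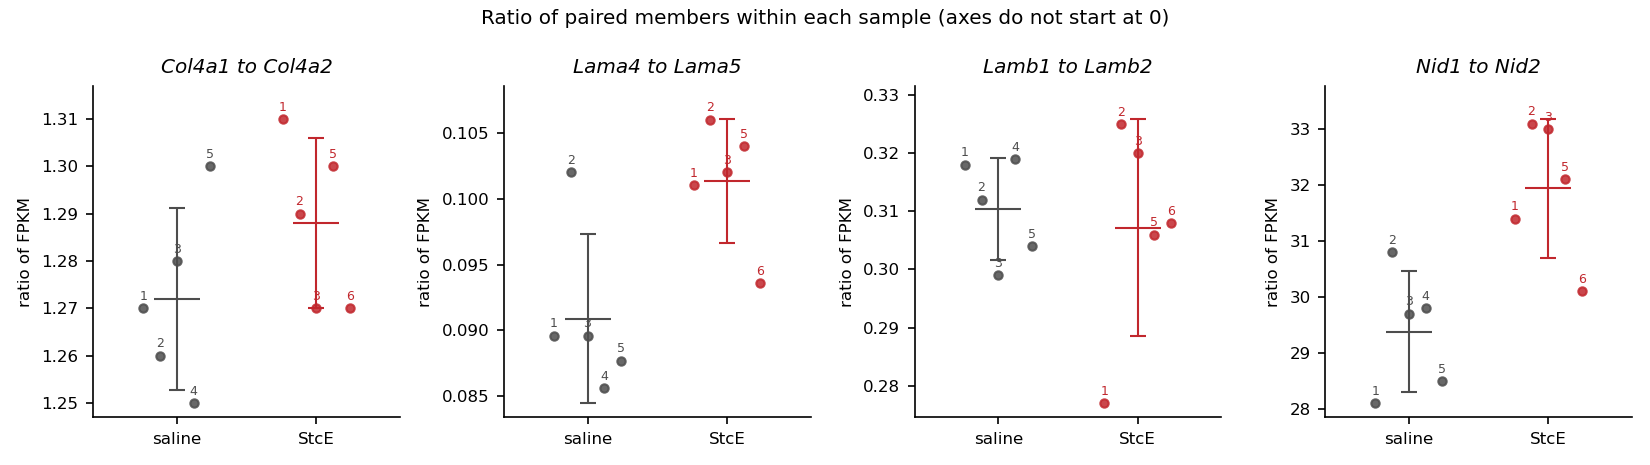
Ratio of FPKM of paired genes within each sample (vertical axes, not starting at 0), in 5 saline (grey) and 5 StcE samples (red), with replicate numbers, means and SDs. The *Lama4* to *Lama5* ratio goes from a mean of 0.0908 to 0.101 and the *Nid1* to *Nid2* ratio from 29.4 to 31.9, while the ratios of *Col4a1* to *Col4a2* and *Lamb1* to *Lamb2* differ by less than the spread.

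The members also varied together from sample to sample within a group. Relative to the saline mean of each gene, saline replicates 1 and 4 were above 100% for all 10 members, with medians of 105.2% and 105.9%, and saline replicate 5 was below for all 10, with a median of 94.5%. StcE replicate 1 was below the saline mean for all 10 members, with a median of 86.8%, and was the lowest StcE sample for 8 of them. StcE replicate 6 was the highest StcE sample for 7 members and had a median of 97.9%. Without StcE replicate 1 the log2 fold change was -0.16 for *Col4a1*, -0.17 for *Col4a2*, -0.13 for *Lamb2* and -0.17 for *Sparc*. StcE replicate 1 had the fewest recovered fragments, 21864604, close to the 21922594 of saline replicate 4, in which the members were high. The part of depth in these values was not tested.

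**Figure D3:**
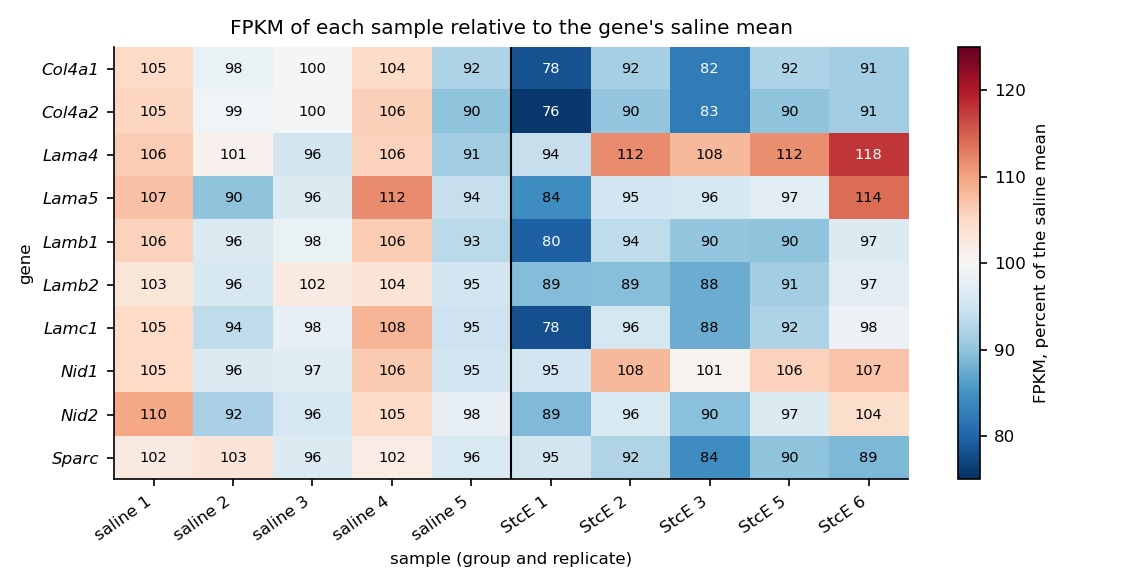
FPKM of each sample as a percentage of the gene's saline mean (colour and number), with genes in rows and the 5 saline and 5 StcE samples in columns. StcE replicate 1 lies between 75.9% and 95.4% for all 10 genes, and in the other StcE samples *Lama4* and *Nid1* lie above 100% while both collagen genes and *Sparc* lie below.

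Other genes of the basement membrane were read from the same limma fit, in which 6.41% of all genes tested were lower and 5.52% higher past the threshold. Of 11 further collagen IV and laminin-family chains, 3 reached a mean of 1 FPKM and 0 of these passed (1 at an unadjusted p under 0.05, and 1 with voom). The most abundant was *Ntn4*, a laminin-related netrin found in vascular basement membranes, at 9.89 ± 0.662 FPKM with saline and 8.68 ± 0.629 with StcE (limma adjusted p = 0.0531). The other 8 chains, *Lama1*, *Lama2* and *Lama3* among them, had a mean over all 10 samples of at most 0.132 FPKM. Of the proteoglycans and multiplexins, 1 of 3 tested genes passed. *Col18a1*, which encodes the precursor of endostatin, fell from 229.5 ± 7.33 to 195.9 ± 10.4 FPKM with no overlap between groups (log2 fold change -0.23, limma adjusted p = 0.00265). The perlecan gene *Hspg2* varied more, with 53.5 ± 5.74 and 50.2 ± 8.21 FPKM (limma adjusted p = 0.587), and agrin (*Agrn*) had 2.70 ± 0.280 and 2.32 ± 0.388 FPKM (limma adjusted p = 0.215).

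Among 6 tested proteins associated with basement membranes, 2 rose and 1 fell. *Tinagl1*, a matricellular protein, rose from 111.6 ± 4.66 to 126.8 ± 2.65 FPKM (log2 fold change 0.18, limma adjusted p = 0.00256), with every StcE sample above every saline sample. *Egfl7*, secreted by endothelial cells, rose from 166.3 ± 5.06 to 188.2 ± 14.5 FPKM (log2 fold change 0.17, limma adjusted p = 0.0378), with StcE replicate 2 (166.3 FPKM) inside the saline range. Of the 10 fits that left out a sample, its call was present only without that replicate (adjusted p = 0.00377), and the adjusted p reached 0.0936 without StcE replicate 3. *Mmrn2*, an endothelial matrix glycoprotein, fell from 71.7 ± 3.59 to 60.7 ± 2.35 FPKM (log2 fold change -0.23, limma adjusted p = 0.00241). The median log2 fold change of these 6 genes was 0.17. In the SPARC family 1 of 2 tested genes fell, *Fstl1*, from 107.2 ± 2.62 to 99.5 ± 1.00 FPKM (limma adjusted p = 0.00860).

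Genes for folding, modification and export of collagen showed no such calls. Of 19 tested, 0 passed with limma, 3 were at an unadjusted p under 0.05, and 1, *Plod3*, passed with voom. Their median log2 fold change was -0.02, with a range of -0.20 to 0.06. *P4hb*, a subunit of prolyl 4-hydroxylase, was the most abundant at 269.6 ± 4.77 FPKM with saline and 268.2 ± 5.21 with StcE (limma adjusted p = 0.856). *Serpinh1*, the collagen chaperone, had 211.5 ± 8.06 and 216.6 ± 7.80 FPKM (limma adjusted p = 0.537). Of 2 tested cross-linking enzymes, *Pxdn*, the peroxidase that forms sulfilimine bonds between collagen IV protomers, fell from 38.3 ± 0.817 to 33.3 ± 1.84 FPKM (log2 fold change -0.20, limma adjusted p = 0.00449). Its groups did not overlap.

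Receptors for laminin and collagen passed for 4 of 11 tested genes, all lower after StcE, where 6.41% of all genes tested were lower past the threshold. At an unadjusted limma p under 0.05 there were 6, and 5 passed with voom. *Itgb4*, the integrin β4 subunit that pairs with α6 to bind laminin, fell from a range of 23.3 to 26.3 to one of 18.3 to 21.3 FPKM (log2 fold change -0.30, limma adjusted p = 0.00167). *Bcam*, a receptor for the laminin α5 chain, fell from 33.2 ± 1.66 to 27.7 ± 1.42 FPKM (log2 fold change -0.25, limma adjusted p = 0.00264). *Dag1* (dystroglycan) fell from 25.7 ± 1.15 to 22.3 ± 1.59 FPKM (limma adjusted p = 0.0229) and *Itga1*, of low level, from 1.22 ± 0.0373 to 1.01 ± 0.0476 FPKM (limma adjusted p = 0.0499). The call on *Itga1* was lost in each of the 10 fits without a sample (adjusted p 0.0614 without StcE replicate 5 to 0.109 without StcE replicate 3) and in 8 of 12 other alternatives, over a range of 0.00124 to 0.262. The adjusted p of *Dag1* was 0.0588 without saline replicate 1, 0.0531 without saline replicate 4, 0.0563 without StcE replicate 3 and 0.0725 when genes of low FPKM were not filtered, in a range of 0.00372 to 0.160 over its alternatives. More abundant integrin genes did not pass. *Itga3*, the most abundant gene of the list, ranged from 266.5 to 300.9 FPKM with saline and from 275.4 to 302.6 with StcE (limma adjusted p = 0.341), and *Itgb1*, at 250.3 ± 2.48 FPKM with saline, had a log2 fold change of 0.01 (limma adjusted p = 0.793). The median log2 fold change of the 11 genes was -0.06.

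Of 13 collagens outside the type IV family, listed as interstitial collagens, 5 were tested, of which 2 fell and 1 rose. *Col8a1*, which forms a short-chain network and is made by endothelium, had the log2 fold change furthest from 0 among the tested genes named here. Named genes below the minimum of 1 FPKM were not ranked. It fell from 20.4 ± 1.01 to 13.8 ± 0.531 FPKM (fold 0.68, log2 fold change -0.53, limma adjusted p = 4.3e-06), and all StcE samples, at most 14.5, lay below all saline samples, at least 19.3. *Col5a1*, a chain of a fibril-forming collagen, fell from 9.65 ± 0.376 to 7.93 ± 0.573 FPKM (log2 fold change -0.26, limma adjusted p = 0.00390). *Col13a1*, a transmembrane collagen, rose from 42.0 ± 0.731 to 48.5 ± 3.68 FPKM (log2 fold change 0.20, limma adjusted p = 0.0148), a call that was not made without a filter on low FPKM. *Col8a1* and *Col13a1* are not interstitial fibril collagens despite the name of the list. The difference between any of these genes and the members was not tested.

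**Figure D4:**
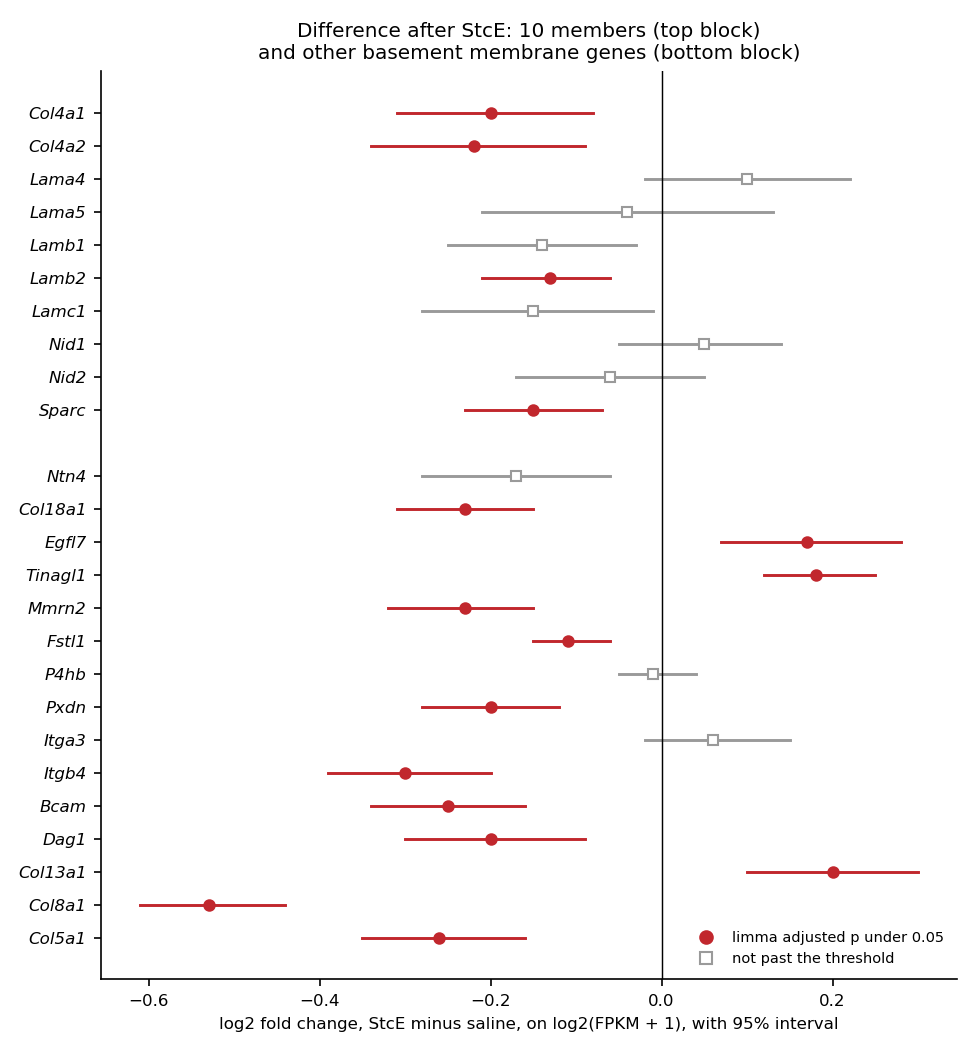
Log2 fold change after StcE (horizontal axis, StcE minus saline on log2(FPKM + 1)) with its 95% interval for the 10 members (top block) and 15 other basement membrane and collagen genes (bottom block). Red circles are past a limma adjusted p of 0.05 and open grey squares are not. *Col8a1* lies lowest at -0.53, the 4 members that fell lie between -0.22 and -0.13, and *Egfl7*, *Tinagl1* and *Col13a1* lie to the right of 0.

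The endothelial label of the line was checked against markers. All 10 endothelial markers were tested, and their summed level was 2005.3, 1920.6, 1926.6, 1997.3 and 1867.7 FPKM in saline replicates 1 to 5 and 1818.0, 1816.3, 1879.0, 1884.9 and 1889.6 FPKM in StcE replicates 1, 2, 3, 5 and 6. The sum was thus lower in 2 StcE samples than in any saline sample, and saline replicate 5 was the lowest of its group as for 7 of the members. The most abundant was the VE-cadherin gene *Cdh5*, with 509.1 ± 25.9 FPKM with saline and 462.7 ± 22.3 with StcE (limma adjusted p = 0.0515). Of the markers 5 fell, *Pecam1* (log2 fold change -0.11, limma adjusted p = 0.0425), *Tek* (-0.24, 0.00857), *Tie1* (-0.18, 0.00295), *Esam* (-0.07, 0.0456) and *Erg* (-0.12, 0.0356), and 1 rose, *Egfl7*, which is also on the list of associated proteins. Across all genes tested 6.41% were lower and 5.52% higher past the threshold. Several of the marker calls depended on single samples. That of *Esam* was lost in each of the 10 fits without a sample (adjusted p 0.0520 without StcE replicate 5 to 0.0970 without StcE replicate 3). *Pecam1* passed only without saline replicate 5 (0.0236) or StcE replicate 2 (0.0375), with 0.0552 to 0.101 in the other fits, and *Erg* only without StcE replicate 3 (0.0102) or StcE replicate 6 (0.0331), with 0.0535 to 0.0808 in the others. *Tek* and *Tie1* passed in all 10. The median over the 10 markers was -0.11, and that of the members -0.14. The part of this shift in the fall of the 4 members was not tested.

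Markers of other vascular and brain cells were at or near 0 with few exceptions. Pericyte and smooth muscle markers summed to 2.20 to 5.37 FPKM with saline and 2.88 to 4.65 with StcE. Nearly all of this was *Acta2* (mean 3.14 FPKM), while *Pdgfrb* reached at most 0.222 FPKM in any sample and *Rgs5* was not among the named rows. Fibroblast markers summed to at most 1.54 FPKM in any sample, mostly *Pdgfra*, with *Col1a1* at 0.140 with saline and 0.0931 with StcE and *Lum* not among the named rows. Of the astrocyte markers *Gja1*, a gap junction gene that endothelial cells also express, had 24.4 ± 0.849 and 25.1 ± 0.327 FPKM, and the other 4 summed to at most 0.115 FPKM in any sample. Leukocyte and microglial markers summed to at most 0.109 FPKM in any sample. Of the 3 tested genes on these lists, *Acta2*, *Pdgfra* and *Gja1*, 0 passed with limma and 0 were at an unadjusted p under 0.05. With voom, which was run without *Acta2*, 0 of the other genes passed.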

How the data were processed

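RNA from 10 samples, 5 saline and 5 StcE, was compared by the groups in the labels. Reads were aligned and counted by the authors to mm10 (GRCm38), and the submitters' processing notes name HISAT2 2.0.5, featureCounts 1.5.0-p3 and DESeq2 1.32.0. The authors deposited FPKM, 1 column per sample, with 27024 named rows and 22874 empty rows. The strand setting and annotation release are not given in the sources used here.

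A minimum of 1 for the mean FPKM left 11062 genes. Their log2(FPKM + 1) values entered limma 3.58.1 (R 4.3.3, lmFit and eBayes, trend on), treatment being the sole term, and p-values were adjusted after Benjamini and Hochberg. Members were also tested by exact permutation of mean FPKM, and 4 ratios of paired members by exact permutation with adjustment over the 4. The procedure was tested on simulated data.

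Whole fragments were recovered with GENCODE vM21 exon lengths. Of the values above 0, 96.6% were within 0.05 of a whole number, and 21864604 to 33147402 fragments per sample resulted. A gene of 1 kilobase with 3 fragments has an FPKM of 0.0857 to 0.131. Copies in other genes were sought with BLAST 2.17.0 at 95% identity over at least 150 bases.

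The members and lists were chosen with earlier results of these data known. Named genes are the members, each list's most abundant tested gene, up to 3 per direction and pathway list with the largest change past the threshold, and markers past the threshold. *Hspg2*, *Agrn*, *Plod3*, *Serpinh1*, *Itga1*, *Itgb1* and untested genes named were chosen after their values were seen. Alternatives changed the pseudocount, filter, scaling, model, weights, block and samples. The levels per coding transcript and the refits of *Itga1* were added after seeing the data.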

Additional observations from a re-analysis of the deposited data

Results flagged for a closer look

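The highest or lowest sample lay far from the rest of its group in 2 of 76 cases, and about 3.80 would arise by chance. The cases were the saline and StcE samples of each of 34 named genes and 4 ratios. The ratio of *Lama4* to *Lama5* in saline replicate 2 was 0.102, against 0.0856 to 0.0896 in the other saline samples. The FPKM of *Tie1* in saline replicate 5 was 125.9, against 135.4 to 139.0 in the other saline samples, and still above every StcE sample.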

How the results depend on the processing

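*Col4a1*, *Col4a2*, *Lamb2* and *Sparc* were lower after StcE in all 22 alternative fits, and past the threshold in 13, 12, 13 and 18 of them. The number of members past it was 4, against 2 with a minimum mean of 0.1 FPKM, 0 without a filter and 1 in the 8 samples with shared replicate numbers, where only *Lamb2* passed. It was 0 to 4 without single samples. The log2 fold changes at a lost call were -0.20 (*Col4a1*) and -0.22 (*Col4a2*) with the 0.1 minimum, without a filter and in the 8 samples, -0.13 (*Lamb2*) and -0.15 (*Sparc*) without a filter, and -0.14 (*Sparc*) in the 8 samples. Why the filter moved these calls was not tested, and 8 samples are fewer. *Lamb1* passed with voom at -0.14 (voom adjusted p = 0.0348, range over its alternatives 0.0348 to 0.244).

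With the replicate number as a block (replicate block), over those 8 samples, 0 members passed, with log2 fold changes of -0.20 (*Col4a1*), -0.22 (*Col4a2*), -0.15 (*Lamb2*) and -0.14 (*Sparc*). Over all genes 349 passed with the block (162 lower, 187 higher). The paired differences were 0.17 for the *Lama4* to *Lama5* ratio and 0.15 for *Nid1* to *Nid2*, each at the smallest exact sign-flip p that 4 pairs allow, 0.125. No pairing by number was detected, with correlations of deviations of -0.10, -0.02, -0.03 and 0.05. The labels do not say what the numbers stand for.

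Over all genes 1320 passed (709 lower, 611 higher), against 801 without a filter (409 lower, 392 higher) and 885 in the 8 samples without the block (452 lower). Without single samples it was 793 (without StcE replicate 3) to 1255, with 409 to 667 lower and 384 to 588 higher. In those fits the log2 fold change ranged from -0.23 to -0.16 for *Col4a1*, -0.26 to -0.17 for *Col4a2*, -0.16 to -0.12 for *Lamb2*, -0.17 to -0.13 for *Sparc* and -0.10 to 0.01 for *Lama5*. The log2 ratio difference ranged from 0.14 to 0.20 for *Lama4* to *Lama5*, 0.10 to 0.14 for *Nid1* to *Nid2* and -0.04 to 0.02 for *Lamb1* to *Lamb2*, and 1 to 3 members did not overlap between groups. Other signs that turned were those of genes near 0. *P4hb* was at 0.0018 with total fragment scaling and with voom and at 0.0038 without StcE replicate 6. *Acta2* was at -0.02 with and without the block in the 8 samples, and at -0.0048, -0.04 and -0.03 without saline replicates 4 and 5 and StcE replicate 2, and reached 0.21 without saline replicate 2. The cause was not tested. *Itga1* lost its call in 18 of 22 refits. A further 24 of the named genes outside the members had 527 refits, *Hspg2*, *Agrn*, *Plod3*, *Serpinh1* and *Itgb1* not being among them. Of these refits 433 kept direction and side of the threshold, 77 lost a call, 9 gained one and 8 turned.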
